A study of Mus musculus with 2 samples.

Results

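Complex III of the respiratory chain, ubiquinol-cytochrome c reductase, was described here through the 9 nuclear genes that encode its subunits, Uqcrc1, Uqcrc2, Uqcrfs1, Uqcrb, Uqcrq, Uqcrh, Uqcr10, Uqcr11 and Cyc1. They were found by symbol among the 20330 Ensembl gene identifiers of a table of FPKM, that is, sequenced fragments scaled for transcript length and for depth. All 9 were present, and all 9 were among the 10297 genes that reached 1 FPKM in WT, in KO or in both. The set was chosen by its KO and WT values in this same table, so the differences below are descriptions, were not tested and support nothing further.

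Adipose tissue macrophages (ATM) were sorted with F4/80 and CD11b antibodies from visceral fat of C57BL/6 mice that were put on a high-fat diet at 4 weeks of age and kept on it for 12 weeks. The KO mice were hMRP8cre+;Hif-1αfl/fl;ApoE-/-, so that Cre under the human MRP8 promoter, which is active in myeloid cells, deletes the loxP-flanked Hif1a alleles there. The WT mice were hMRP8cre-;Hif-1αfl/fl;ApoE-/-, so both genotypes are labelled ApoE-/- and carry the floxed alleles. There was 1 library for each genotype, and whether cells of several animals were pooled is not stated in the sources used here. The spread between mice or cultures of a genotype is thus unknown for every difference below, and neither a p-value nor an SD is given.

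Complex III sits in the inner mitochondrial membrane, takes electrons from ubiquinol, passes them to cytochrome c and moves protons across the membrane as it does so. Its redox centres are held by cytochrome b, which mitochondrial DNA encodes, by cytochrome c1 (Cyc1) and by the Rieske iron-sulphur protein (Uqcrfs1). The core proteins Uqcrc1 and Uqcrc2 form the part that faces the matrix, and the remaining small subunits hold no redox centre. In macrophages the respiratory chain is known to be used more after alternative activation than after activation by bacterial products, which favours glycolysis. The study measured oxygen consumption and ATP in sorted ATM and reported both as increased in KO. RNA of the subunit genes bears on the same process but measures neither, and the link was not tested.

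The difference used throughout is log2(FPKM + 1) in KO less that in WT, without rescaling, and genes whose difference reached 3-fold were called. Of all 10297 genes, 27.3% passed 3-fold in either direction, 13.6% higher and 13.7% lower in KO, and the median difference was 0.03. The depth was estimated from a step, the most frequent value below 0.5 of FPKM times transcript length in kb. The step rested on 18 genes in WT and 20 in KO. The depth was about 5860000 fragments for WT and 7470000 for KO. Hif1a, the deleted gene, was at 30.4 FPKM for WT and 20.97 FPKM for KO, and this value covers the whole gene, not the deleted part. Apoe was at 94.3 FPKM in WT against 117 FPKM in KO, which goes against the ApoE-/- label of both libraries if read as a loss of its RNA, and these values do not show which part of the gene the reads cover. Of 10 macrophage markers 9 were in the table, of which none was at 0 in either library, and their FPKM summed to 12701 in WT and 12681 in KO. C1qb, Lyz2 and C1qa made up most of these sums. Of the 9 markers, 4 were higher and 5 were lower in KO. Mertk was at 38.0 FPKM in WT against 88.1 FPKM in KO, and Fcgr1 at 49.3 and 21.9 FPKM.

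KO had the higher value for 6 of the 9 complex III genes and the lower for 3, with a median difference of 0.37 against 0.03 over all genes. None passed 3-fold upwards and 1, Uqcrb, passed it downwards. This 1 of 9 stands beside 27.3% of all genes in either direction and 13.7% downwards, and since the values chose the members nothing is read from it. The summed FPKM of the members was 1075 in WT and 1465 in KO, a ratio of 1.36. The sum followed the small subunits, which made up 89.4% of it in WT and 92.5% in KO.

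**Figure D1:**
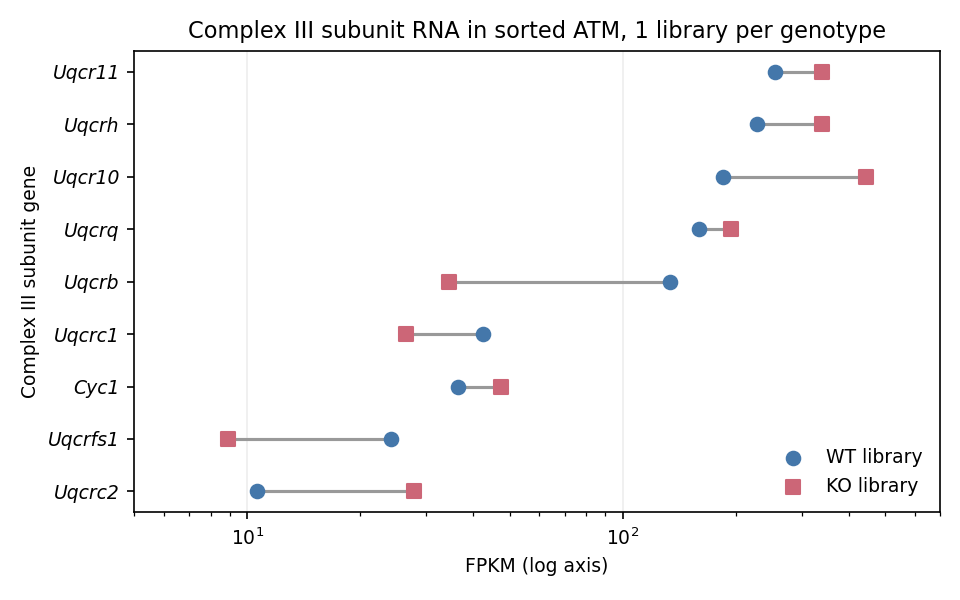
FPKM (log axis) of each complex III subunit gene in the WT library (circles) and the KO library (squares), 1 library per genotype, with genes in order of their WT level and lines joining the values of a gene. Uqcrb drops from 134 to 34.5 FPKM, away from the other small subunits, whereas Uqcr10 goes from 185 to 446 FPKM.

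The core proteins were compared first. Uqcrc1 (GRCm38 chromosome 9, 108936633 to 108949623, plus strand) was at 42.5 FPKM in WT against 26.4 FPKM in KO, a difference of -0.67. Uqcrc2 (chromosome 7, 120635176 to 120659524, plus strand) was at 10.6 FPKM for WT and 27.8 FPKM for KO, a difference of 1.31. The pair went opposite ways, and Uqcrc2 was the lowest of the 9 in WT but not in KO. In the assembled complex these proteins are present in equal number. Per length, Uqcrc1 RNA was 4.01 times as abundant as Uqcrc2 RNA in WT and 0.948 times in KO, while their sum was 53.1 FPKM in WT against 54.2 FPKM in KO. An estimated 118 fragments lay behind the WT value of Uqcrc2 and 394 behind its KO value. Differences of this size were frequent at this level. Of the 1861 genes with a mean of 10 to 20 FPKM, 27.6% differed by as much as Uqcrc2 or more. Of the 1711 genes with a mean of 20 to 50 FPKM, 43.7% differed by as much as Uqcrc1 or more.

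The redox subunits also went opposite ways. Cyc1 (chromosome 15, 76343523 to 76346260, plus strand), which encodes cytochrome c1, was at 36.4 FPKM for WT and 47.4 FPKM for KO, a difference of 0.37. Uqcrfs1 (chromosome 13, 30540308 to 30545362, minus strand), which encodes the Rieske protein that hands electrons to cytochrome c1, was at 24.2 FPKM in WT against 8.89 FPKM in KO, a difference of -1.35. It stopped short of the 3-fold threshold and was the lowest of the 9 genes in KO. Cyc1 RNA was 1.504 times as abundant as Uqcrfs1 RNA in WT and 5.33 times in KO. Among genes with a mean of 10 to 20 FPKM, 26.9% differed by as much as Uqcrfs1 or more, and among those of 20 to 50 FPKM 65.5% differed by as much as Cyc1 or more. The RNA of cytochrome b, mt-Cytb, was not analysed here.

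Of the small subunits, 4 were higher in KO and Uqcrb was lower. Uqcrb (chromosome 13, 66900617 to 66905378, minus strand), which encodes a small subunit that contacts cytochrome b and ubiquinone, was at 134 FPKM for WT and 34.5 FPKM for KO. The difference of -1.92 was the farthest from 0 of the members. Some 419 fragments were estimated behind the WT value and 138 behind the KO value. Of the 667 genes with a mean of 50 to 100 FPKM, 3.30% differed by as much or more, and 3.90% passed 3-fold downwards. Uqcrb has a short transcript of 535 nt, and of the 92 genes under 1000 nt at this level 16.3% differed by as much or more and 20.7% passed 3-fold downwards. Short transcripts at this level thus passed the threshold more often than all transcripts, and the part of length in the Uqcrb value was not tested.

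Uqcr10 (chromosome 11, 4701973 to 4704342, minus strand), one of the smallest subunits, was at 185 FPKM in WT against 446 FPKM in KO. Its difference of 1.26 corresponds to 2.40-fold, short of the threshold. It was behind Uqcr11 and Uqcrh in WT and the highest in KO, with 17.2% and 30.4% of the summed FPKM of all members. Of the 653 genes with a mean of 100 to 1000 FPKM, 5.21% differed by as much or more, against 18.3% of the 142 among them that are under 1000 nt. The Uqcr10 transcript has 434 nt.

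Uqcrh (chromosome 4, 116066965 to 116075071, minus strand), the acidic hinge protein that lies near cytochrome c1, was at 228 FPKM for WT and 340.3 FPKM for KO, a difference of 0.58. Uqcr11 (chromosome 10, 80402997 to 80406830, minus strand) was at 255 FPKM in WT against 339 FPKM in KO, a difference of 0.41. These genes were near each other in both libraries, with a ratio of Uqcrh to Uqcr11 of 0.894 in WT and 1.004 in KO. Uqcrq (chromosome 11, 53427922 to 53430831, minus strand), which encodes the ubiquinone-binding protein QP-C, was at 159.6 FPKM for WT and 195 FPKM for KO, a difference of 0.29. Between 23.3% and 53.3% of genes at 100 to 1000 FPKM differed by as much as these 3 or more, so they lay within the common spread between the libraries.

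The order of levels showed the small subunits above the core and redox subunits in WT. In WT the order was Uqcr11, Uqcrh, Uqcr10, Uqcrq, Uqcrb, Uqcrc1, Cyc1, Uqcrfs1 and Uqcrc2, from 255 to 10.6 FPKM, a 24.04-fold range. In KO it was Uqcr10, Uqcrh, Uqcr11, Uqcrq, Cyc1, Uqcrb, Uqcrc2, Uqcrc1 and Uqcrfs1, from 446 to 8.89 FPKM, a 50.2-fold range. Uqcrb thus stood below Cyc1 in KO. The small subunits spanned a 1.91-fold range in WT and a 12.9-fold range in KO, and without Uqcrb these ranges were 1.60-fold and 2.29-fold. Neighbours in these orders cannot be said to differ, since no replicate exists. FPKM of transcripts near the length of the sequenced fragments depends strongly on the length correction, so the gap between short and long subunits is less secure than the comparison of a gene with itself.

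**Figure D2:**
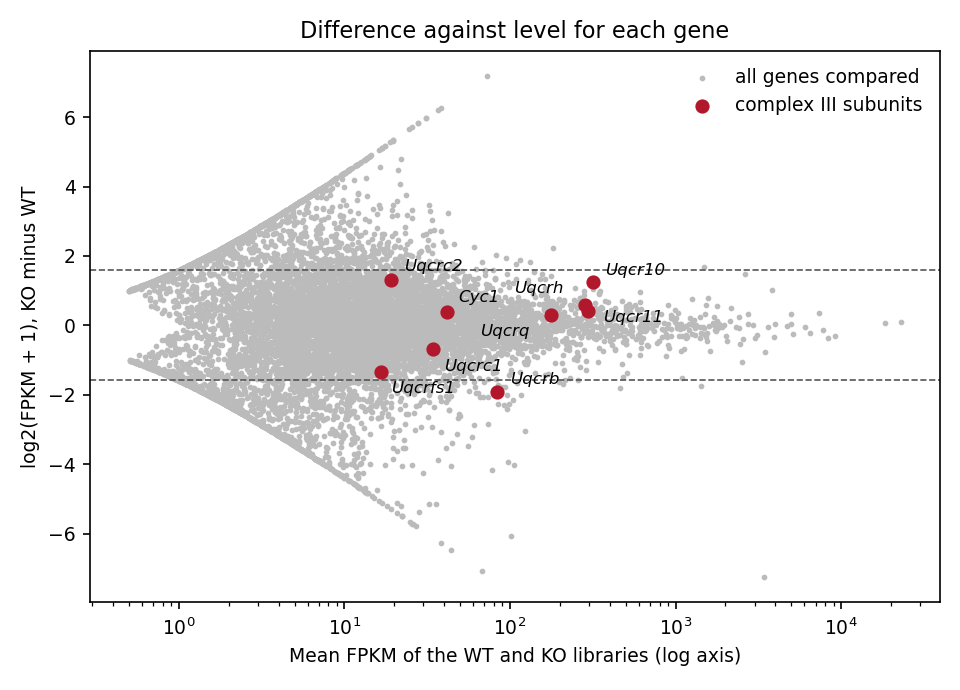
Difference in log2(FPKM + 1), KO minus WT, against the mean FPKM of both libraries (log axis) for the 10297 genes compared (grey) and the 9 complex III genes (red), with dashed lines at 3-fold. The spread narrows with level, and Uqcrb at -1.92 is the member beyond a dashed line.

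The genes nearest to a member in both libraries were sought in the plane of the WT and KO values of log2(FPKM + 1). For Uqcrb they were Fabp5 at a distance of 0.18, Ndufb9 at 0.21 and Dpm3 at 0.25. Ndufb9, a subunit of complex I, was at 139 FPKM in WT against 39.8 FPKM in KO. For Uqcr10, the highest member on average, they were Tcn2 at 0.17, Atp6v0b at 0.25 and Atp5l, a subunit of ATP synthase, at 0.32. These distances rest on 2 libraries.

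Because the KO removes a transcription factor, the promoters were inspected. RefSeq start sites on GRCm38.p6 were given for 5 of the 9 members, Uqcrc1, Uqcrfs1, Uqcrh, Uqcr10 and Uqcr11, each with 250 bases before and 50 bases after the start. Searched on both strands were the HIF core letters ACGTG and GCGTG, the ETS core CCGGAAG, the CREB site TGACGTCA, and GCATGCGC, the core of the site for NRF1, a known regulator of nuclear respiratory genes. ACGTG was found in 1 of the 5, Uqcr11, and in 19.7% of 27025 promoters of the table. GCGTG was found in 3, Uqcr11, Uqcrfs1 and Uqcrh, and in 32.5% of all. The ETS core was found in Uqcr11 and Uqcrh and in 9.12% of all, the NRF1 core in Uqcr11 and Uqcrc1 and in 2.80%, and the CREB site in Uqcrfs1 and in 1.88%. Uqcr10 held none of these letters, which says nothing about which factors act there. Shown are 3 promoters with matches close to the start, from 96 bases before it to base 4 of the transcript, read 5′ to 3′ on the gene's strand with the matched letters in capitals.
Uqcr11 (chr10:80406818-80406917, minus strand): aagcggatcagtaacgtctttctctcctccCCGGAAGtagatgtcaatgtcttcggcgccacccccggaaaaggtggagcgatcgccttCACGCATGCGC
Uqcrh (chr4:116075067-116075166, minus strand): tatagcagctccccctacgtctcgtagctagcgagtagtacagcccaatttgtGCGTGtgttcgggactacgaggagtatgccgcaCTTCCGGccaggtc
Uqcrfs1 (chr13:30545313-30545412, minus strand): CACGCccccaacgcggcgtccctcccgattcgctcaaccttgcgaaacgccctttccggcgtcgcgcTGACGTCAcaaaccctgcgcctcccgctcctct
The ACGTG match of Uqcr11 lies before the stretch shown. In Uqcrh the ETS core is read on the other strand as CTTCCGG, and in Uqcrfs1 GCGTG is read as CACGC. In Uqcr11 the GCGTG match, read on the other strand as CACGC, overlaps the NRF1 core at the start site. In Uqcrc1 the NRF1 core lies within the first bases of the transcript and matches on both strands, so 30 bases are shown (chr9:108936668-108936697, plus strand).
Uqcrc1: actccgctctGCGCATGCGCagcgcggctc
Uqcr11 and Uqcrh, with these matches, were higher in KO, and Uqcrc1 and Uqcrfs1 were lower. Uqcr10, without a match, was also higher, by 1.26. A match is a description of letters and no evidence of binding.

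Genes beside the members in the genome were examined because reads at overlapping genes can be shared, and the strand setting of the counting is not stated. Pdzd9 overlaps Uqcrc2 on the opposite strand and was listed at 0 in WT and 1.33 FPKM in KO. Gm10767 overlaps Uqcrb on the opposite strand and was listed at 0 in both libraries. A processed pseudogene, Gm12854, overlaps Uqcrh on the opposite strand. Mbd3, the coding gene next to Uqcr11 on the same strand with a gap of 3446 nt, was at 4.51 FPKM for WT and 60.5 FPKM for KO, a difference of 3.48. Tcf3, on the other side of Uqcr11 with a gap of 2683 nt, differed by -1.35. Beside Uqcr10 the coding genes were Zmat5 at 335 nt and Ascc2 at 16273 nt, which differed by -0.76 and 2.28. Beside Uqcrh they were Lrrc41 at 197 nt and Nsun4 at 13088 nt, which differed by -0.44 and -2.31. Gdf9, 191 nt from Uqcrq, was listed at 0 in both libraries. Further neighbours that differed past 3-fold were Mosmo beside Uqcrc2, listed at 0 in WT and 3.42 FPKM in KO, and Dusp22 beside Uqcrfs1, at -2.12.

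Complex III was set beside the other complexes of the chain, whose genes the FPKM table gives in the same libraries. The median difference was -0.93 for 35 genes of complex I, -1.48 for 4 of complex II, -0.60 for 11 of complex IV and -0.16 for 16 of ATP synthase, against 0.37 for complex III. Higher in KO were 12 of 35, 0 of 4, 2 of 11 and 6 of 16 genes, against 6 of 9. Complex III was the only one of these whose FPKM sum was above that of WT, at a ratio of 1.36, where ATP synthase had 0.721, complex IV 0.661, complex I 0.632 and complex II 0.476. The core and redox subunits together had a ratio of 0.971 and the 5 small subunits had 1.41. Without Uqcrb, left out because of its own fall, the small subunits had 1.60. No ratio was taken without Uqcr10, whose rise of 261 FPKM was the largest of the members. The ratios of 1.36, 1.41 and 1.60 thus rest in large part on this gene. Passing 3-fold were 9 of 35 genes of complex I (3 higher, 6 lower), 2 of 4 of complex II, 2 of 11 of complex IV and 1 of 16 of ATP synthase. These shares were 25.7% for complex I, 18.2% for complex IV and 6.25% for ATP synthase, beside 27.3% of all genes, and complex II has too few genes for a share to be read. The difference between complexes was not tested, since there is 1 library per genotype and the set was chosen with it known.

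Transcript length was considered in the same comparison. Among genes under 1000 nt with a mean of 10 to 1000 FPKM, 29.2% passed 3-fold and the median difference was -0.30, against 11.3% and 0.04 for longer ones. The 4 short complex III genes had a median of 0.49, beside -0.93 for 23 short genes of complex I, -0.74 for 10 of complex IV and -0.31 for 11 of ATP synthase. The 5 longer complex III genes had a median of 0.29, beside -0.77 for 12 of complex I, -1.48 for 4 of complex II, 0.46 for 1 of complex IV and 0.02 for 5 of ATP synthase. The classes of Uqcrc1, Uqcrc2, Cyc1 and Uqcrq are uncertain, since each has annotated coding transcripts on both sides of 1000 nt, for Uqcrq from 405 to 1521 nt. With Uqcrq among the short genes, the medians of complex III were 0.41 for 5 short genes and -0.15 for the 4 longer ones, so the sign for longer genes turned and was below that of ATP synthase. With all 4 of these genes among the short ones, Uqcrfs1 alone would be left as longer, at -1.35, which is below the -0.77 of complex I. Genes of the other complexes were not moved between classes in these comparisons.

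**Figure D3:**
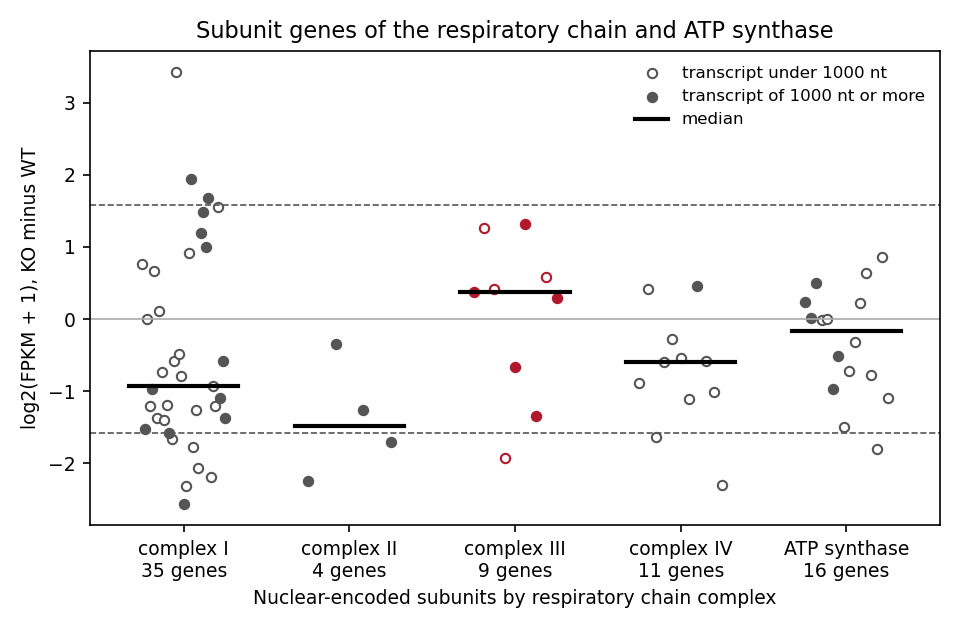
Difference in log2(FPKM + 1), KO minus WT, for each nuclear-encoded subunit gene of complexes I to IV and ATP synthase, with open circles for transcripts under 1000 nt, black bars for medians and dashed lines at 3-fold; the sideways position within a column only separates the points. The complex III median of 0.37 lies above 0, and those of the other complexes lie between -1.48 and -0.16.

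The proteins that build complex III were compared next. Of 7 assembly factors, 6 passed the filter, with a median difference of 0.08. Uqcc3 and Uqcc1, which act early on cytochrome b, were listed at 0 in WT and at 12.7 and 3.04 FPKM in KO, and these 2 of the 6 passed 3-fold, beside 13.6% of all genes upwards. Both passed the filter through KO alone, so their number supports nothing. No fold is given, since a listed 0 can be a failed estimate. Uqcc2, their partner, was at 36.4 FPKM in WT against 41.1 FPKM in KO. Bcs1l, which inserts the Rieske protein, was at 6.05 FPKM for WT and 5.99 FPKM for KO. Ttc19, which clears Rieske fragments, was at 7.04 FPKM and 3.13 FPKM, and Hccs, which attaches haem to cytochromes c and c1, was at 5.23 FPKM and 2.87 FPKM. Lyrm7, a chaperone of the Rieske protein, was listed at 0 in both libraries.

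The core subunits resemble the mitochondrial processing peptidase, whose subunit genes both were higher in KO. Pmpca was at 8.55 FPKM in WT against 11.3 FPKM in KO. Pmpcb was at 1.68 FPKM and 7.71 FPKM, past 3-fold on a low WT value. Among factors that join complex III with complex IV, Cox7a2l was at 197 FPKM for WT and 201 FPKM for KO, Higd2a at 91.3 and 120.5 FPKM, and Higd1a, a hypoxia-inducible protein, at 43.9 and 17.8 FPKM. None of these 3 passed 3-fold, and 1 of the 2 peptidase genes did, beside 27.3% of all genes in either direction. Lists this short allow no share to be read.

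The Rieske protein needs an iron-sulphur cluster, and 8 of the 11 genes of cluster supply compared here were lower in KO, with a median of -0.32. Past 3-fold were 3 of these 11 genes, or 27.3%, beside 27.3% of all genes. An item of the list was left out of these counts, so the match in share is not read. The 1 that was lower was Iscu, the scaffold on which clusters form, at 70.04 FPKM in WT against 3.83 FPKM in KO. The 2 that were higher were Hscb, a cochaperone of cluster transfer listed at 0 in WT and 33.8 FPKM in KO, and Glrx5, at 2.36 and 9.96 FPKM. Hscb passed the filter through KO alone, so the count supports nothing. Hspa9, the chaperone that works with Hscb, was at 33.7 FPKM for WT and 32.2 FPKM for KO.

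Ubiquinone, the substrate of complex III, is made by a pathway of which 10 of 13 genes passed the filter. Passing 3-fold were 4 genes, all upwards, and 0 downwards, beside 13.6% of all genes upwards and 13.7% downwards. These 4 were under 1 FPKM in WT and passed the filter through KO, where they are high, so their number supports nothing. Pdss1, which starts the side chain, was at 0.109 FPKM in WT against 13.5 FPKM in KO. Coq2, which joins the side chain to the ring, and Coq7, a hydroxylase, were listed at 0 in WT and at 8.36 and 3.36 FPKM in KO. Coq10a was at 0.881 and 5.31 FPKM. Coq8b, at 3.77 FPKM in WT, was at 11.3 FPKM in KO without passing 3-fold. Lower in KO, also short of 3-fold, were Coq9, a lipid-binding partner of Coq7, at 20.95 FPKM for WT and 7.38 FPKM for KO, Coq5 at 8.51 and 3.33 FPKM, Coq8a at 4.78 and 2.35 FPKM, and Coq10b at 73.5 and 46.2 FPKM. The median of the list was 1.23, and it was -0.79 over genes at 1 FPKM or more in each library. That filter removes the 4 genes past 3-fold and also Coq4, listed at 0 in WT and 1.12 FPKM in KO.

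**Figure D4:**
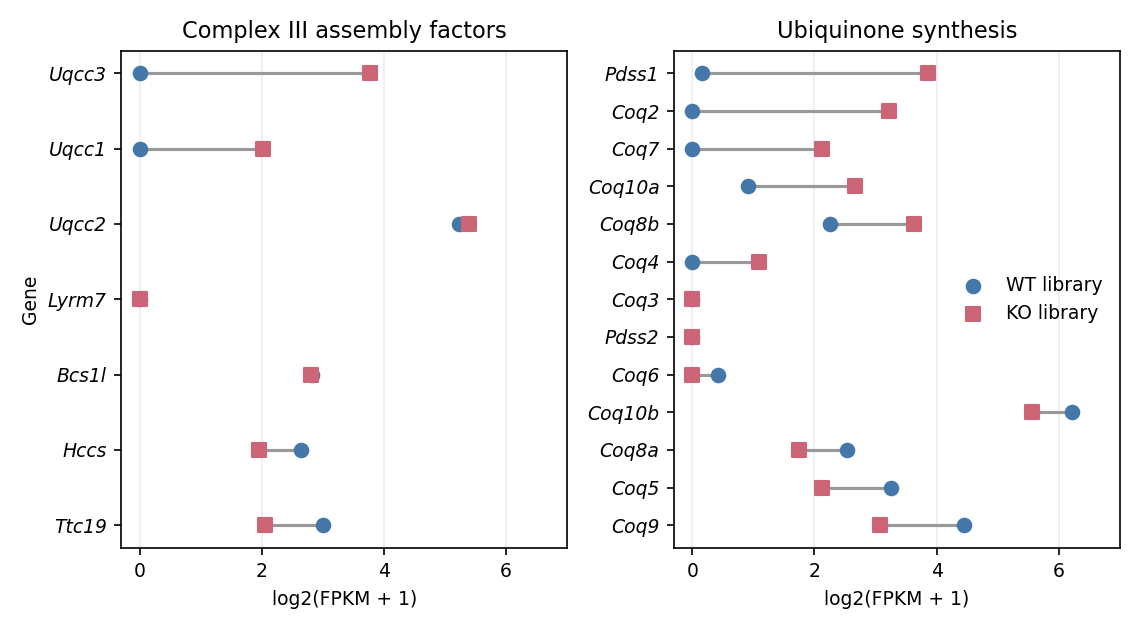
Level as log2(FPKM + 1) in the WT library (circles) and the KO library (squares) for 7 complex III assembly factors and 13 genes of ubiquinone synthesis, with lines joining the values of a gene. Uqcc1 and Uqcc3, and Coq2, Coq4 and Coq7, lie at 0 in WT, and where both libraries are at 0 the square covers the circle.

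Electrons reach ubiquinone from other enzymes too, and leave complex III through cytochrome c. Of 8 genes listed for other routes of electrons to ubiquinone, 7 passed the filter, 5 of them lower in KO, with a median of -0.56. Etfb, a subunit of the electron transfer flavoprotein of fatty acid oxidation, was at 162 FPKM in WT against 29.6 FPKM in KO, and Gpd2, of the glycerol phosphate shuttle, was at 8.59 and 1.06 FPKM, both lower past 3-fold. Etfdh, which passes the electrons of the flavoprotein to ubiquinone, was at 12.8 FPKM for WT and 24.04 FPKM for KO. Dhodh, of pyrimidine synthesis, was listed at 0 in WT and 8.39 FPKM in KO, and was the 1 gene higher past 3-fold. These 3 of 7 stand beside 27.3% of all genes in either direction, and Dhodh passed the filter through KO alone. Cycs, which encodes cytochrome c itself, was at 17.99 FPKM in WT against 10.98 FPKM in KO, a difference of -0.66.

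Markers of other cells moved between the libraries as well. All 6 neutrophil markers past the filter, of 8 looked up, were higher in KO, and the summed FPKM of the list was 158 in WT and 521 in KO. Most of this sum came from S100a8 and S100a9, which rose from 73.3 to 182 and from 63.4 to 301 between WT and KO. The paper cites reports of MRP8, the S100a8 product, in blood monocytes as well as neutrophils. Csf3r went from 15.5 to 24.1 and Cxcr2 from 5.83 to 7.96. Whether the sum reflects neutrophil content was not tested. Ngp and Retnlg passed the filter through KO alone, so their direction was fixed by it. Camp and Ltf, which mark neutrophil granules, were listed at 0 in both libraries. All 5 fibroblast or preadipocyte markers were higher in KO, with a sum of 43.2 FPKM for WT and 83.9 FPKM for KO. Here Col1a2 and Pdgfra passed the filter through KO alone. Of the adipocyte markers, Adipoq and Plin1 were listed at 0 in both libraries, and the list summed to 95.9 FPKM in WT against 100.1 FPKM in KO. Fabp4, which macrophages also express, made up most of this sum with 90.1 and 91.4 FPKM. Cidec was at 5.83 FPKM in WT and listed at 0 in KO, while Cfd and Lep were listed at 0 in WT and at 7.11 and 1.60 FPKM in KO. The eosinophil list summed to 6.50 FPKM in WT against 33.1 FPKM in KO through Alox15 and Ccr3, with Siglecf, Prg2 and Epx listed at 0 in both libraries. Their part in the complex III values was not tested. In sorted bulk cells, fewer cells of a type and less RNA per cell cannot be told apart.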

How the data were processed

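RNA of sorted ATM was measured by poly(A) RNA sequencing in 1 WT and 1 KO library. The authors deposited 1 table of FPKM values per Ensembl gene. The submitters' processing notes name CASAVA 1.8.2, TopHat2 2.0.9, Cufflinks 2.2.1 and build mm9. The annotation and options are not given in the sources used here. The column headed as mutant was taken as the KO library. FPKM are scaled for length and depth and are not counts, so no count test was used.

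Of 20749 rows, 401 repeated others in full and were dropped, and 18 rows with other values for an identifier were summed (0 in the lists used). Symbols were found for 98.6% of identifiers in GENCODE M21. Coordinates and lengths (median coding transcript paired with RefSeq) are of GRCm38, not of the authors' build. A pseudocount of 1 was used, which understates differences of low genes. One fragment was taken as the step of 0.171 FPKM x kb in WT and 0.134 in KO, so fragment numbers are estimates and cover counting error only. They use the full annotated length, which makes them less secure for short transcripts. Members of a complex, pathway lists, neighbours and the genes nearest in level were named. The members and lists were chosen with earlier results of these data known. An item of the iron-sulphur cluster list is not reported here and was left out of its counts. Calling was run on simulated data without noise, in which chosen genes were changed by more than the 3-fold threshold. The calls were thus fixed beforehand, so this checked the code only and shows nothing of error rates. Python 3.11.15, numpy 2.4.6 and pandas 2.3.3 were used.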

Additional observations from a re-analysis of the deposited data

How the results depend on the processing

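The 9 member differences kept their sign under the other pseudocounts and scalings, which was fixed beforehand and shows nothing of their stability. A pseudocount cannot turn a sign. Scaling moved all genes alike by at most 0.04 on the log2 scale, below the smallest member difference of 0.29, that of Uqcrq. The filters and the treatment of repeated identifiers cannot alter the value of a member and also show nothing of its stability. Uqcrb ranged from -1.95 to -1.88 and the complex III median from 0.29 to 0.41, with 0.39 when Uqcrb was left out, a setting chosen after seeing the data. The 0.29 is without genes under 1000 nt and counts Uqcrq as longer, and it is -0.15 with Uqcrq as short. An allowance of 1.5-fold was set by hand and does not measure replicate spread, which is unknown. At a 2-fold threshold 2 members were higher and 2 were lower in KO. Genes past 3-fold over the whole table numbered 1402 higher and 1413 lower, 429 and 447 where each library reached 1 FPKM, 598 and 646 at a mean of at least 5, and 2380 and 2314 at 2-fold. The ubiquinone synthesis median was 2.01 with a pseudocount of 0.1, 2.08 with 0.01, 0 with no filter, -0.79 where each library reached 1 FPKM and -0.66 at a mean of at least 5. The processing peptidase median was 0.36 at a mean of at least 5, where 1 gene was left, and the complex IV median was 0.46 without genes under 1000 nt, again 1 gene. The assembly factor median turned to -0.35 where each library reached 1 FPKM, and the ATP synthase median to 0.02 without genes under 1000 nt. Ranks of members within a library do not depend on a common divisor, so relative levels gave the same order by construction. No paired analysis was possible because WT and KO are single libraries.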
